A study of Drosophila melanogaster with 72 samples.

Results

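The attacin, cecropin and diptericin genes are the antibacterial peptide genes of Drosophila melanogaster that are classically read as targets of the Imd pathway. All 10 of them were followed here: AttA, AttB, AttC and AttD, CecA1, CecA2, CecB and CecC, and DptA and DptB. They were taken by their FlyBase symbols, and all 10 were found among the 23932 features of the count table of the Lpp[TS] lines and the 13925 features of each of the 2 tables of the Lsp2 allele lines. Whole female flies were ground, and each sample gave libraries of total RNA and of the monosome and polysome fractions of a sucrose gradient, giving 72 libraries over 9 groups of genotype and age. The monosome fraction holds transcripts with 1 ribosome, and the polysome fraction holds transcripts carrying several.

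At 15 days of age, 3 groups carried the Lpp[TS] driver, with 2 biological replicates each. These were Lpp[TS]>w1118, the driver control, Lpp[TS]>Lsp2, which overexpressed the larval serum storage protein Lsp2, and Lpp[TS]>Rheb, which overexpressed Rheb, the small GTPase that activates the growth kinase complex mTORC1. Lpp drivers are generally used to express genes in the fat body, the fly organ that corresponds to liver and adipose tissue. The labels do not say what the TS element is. The other 15-day groups were Lsp2[A10] and Lsp2[B14], and each of these alleles together with Thor[2] (Thor[2];Lsp2[A10], and Thor[2] with the B14 allele, Thor[2];Lsp2[B14]), with 3 biological replicates each. Thor encodes 4E-BP, the translation inhibitor that mTORC1 switches off. Lsp2[A10] and Lsp2[B14] were also sampled in young flies 2-3 days old, again with 3 biological replicates each. What distinguishes the A10 and B14 alleles is not given in the sources used here.

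In the Imd pathway, peptidoglycan of Gram-negative and some Gram-positive bacteria is bound by the receptors PGRP-LC, at the cell surface, and PGRP-LE, and the signal runs through the adaptor imd to the NF-kappa-B factor Rel, which enters the nucleus and turns on peptide genes. The response is held down by amidases that digest peptidoglycan, such as PGRP-LB and the PGRP-SC proteins, and by pirk, which interferes with signalling at the receptor. In an infected fly the fat body releases these peptides into the hemolymph, and barrier tissues such as the gut make them locally. Cecropins are short helical peptides that break bacterial membranes. Attacins and diptericins are glycine-rich and act mainly on Gram-negative bacteria. AttD differs from the other attacins in that its product lacks a signal peptide.

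The genes lie in clusters of close copies (coordinates of genome build BDGP6.54, 1-based). On chromosome arm 2R, AttA (14747362 to 14748215) and AttB (14749223 to 14750165) lay 1007 bases apart on the plus strand. AttC (13393705 to 13394667) was on the same arm, also on the plus strand, as were DptA (18865765 to 18866260) and DptB (18867391 to 18867895), which were 1130 bases apart. The cecropins were grouped on 3R, with CecA1 (30210874 to 30211273), CecA2 (30212156 to 30212568) and CecC (30216484 to 30216938) on the plus strand and CecB (30213315 to 30213797) on the minus strand between CecA2 and CecC. AttD stood alone on 3R (17625268 to 17626086). Every gene is protein coding, DptA has 1 exon and the others have 2, and the summed exon length ran from 339 bases for CecA1 to 900 bases for AttC. AttA and AttB, and CecA1 and CecA2, are near-identical copies, so how their reads were split between them is uncertain. AttC overlaps the antisense gene CG4744, which held 0 to 194 counts per total RNA library with a median of 1, and DptB overlaps CG43109, with 1 to 41 counts and a median of 8. Whether counting used the strand is not given in the sources used here.

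Total RNA libraries held 15.3 to 39.7 M counts (1 M is 1000000), monosome libraries 5.07 to 21.3 M and polysome libraries 3.13 to 31.3 M. Levels are given as CPM, the counts of a gene per 1000000 counts of the library's deposited total. A count of 0 in a total RNA library allows up to 0.0756 to 0.196 CPM, taken as 3 counts, and such limits cover counting error only. Rheb stood at 879 and 967 CPM in Lpp[TS]>Rheb and at 126 and 125 in the control. Lsp2 reached 7686 and 6609 CPM in Lpp[TS]>Lsp2, but also 2268 and 2578 in Lpp[TS]>Rheb, against 4.49 and 5.23 in the control. Thor was not lower in the libraries labelled Thor[2], at 253 to 364 CPM, than in the same alleles without it, at 221 to 291 CPM, so those groups are named by their labels throughout. Each batch label in the records names 1 genotype and 1 fraction, and batch therefore cannot be told apart from group. In whole flies, fewer cells of a type and less RNA per cell cannot be told apart either. Of 9 fat body and 8 hemocyte markers, the latter being blood cells that also make such peptides, none was at 0 in any total RNA library. Of 8 markers of male accessory gland and testis, 0 were at 0 in both Lpp[TS]>w1118 libraries (summed to 25.2 and 34.1 CPM) and in Lpp[TS]>Lsp2 replicate 1 (56.4). In Lpp[TS]>Lsp2 replicate 2 (34.3) and both Lpp[TS]>Rheb libraries (13.4 and 14.9) 6 were at 0. The allele libraries held 8.5 to 33.8 CPM, with 1 to 7 at 0. The part of these markers in the results was not tested.

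The peptide genes were expressed at low levels, unequally between genes. Per kilobase of exon, DptB had the highest median over the 24 total RNA libraries, at 11.5 CPM per kb with a range of 0.298 to 143, and AttC followed at 10.3 with a range of 1.96 to 55.1. The median was 7.21 CPM per kb for DptA, 5.07 for AttB, 3.11 for CecA1, 2.08 for CecA2, 1.28 for AttA and 1.2 for CecC. AttD had a median of only 0.378, and CecB, at 0 in 14 of 24 libraries, held 43 counts in all. The longest gene, AttC, was thus also among the most abundant, and CecB could hardly be measured at this depth.

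**Figure D1:**
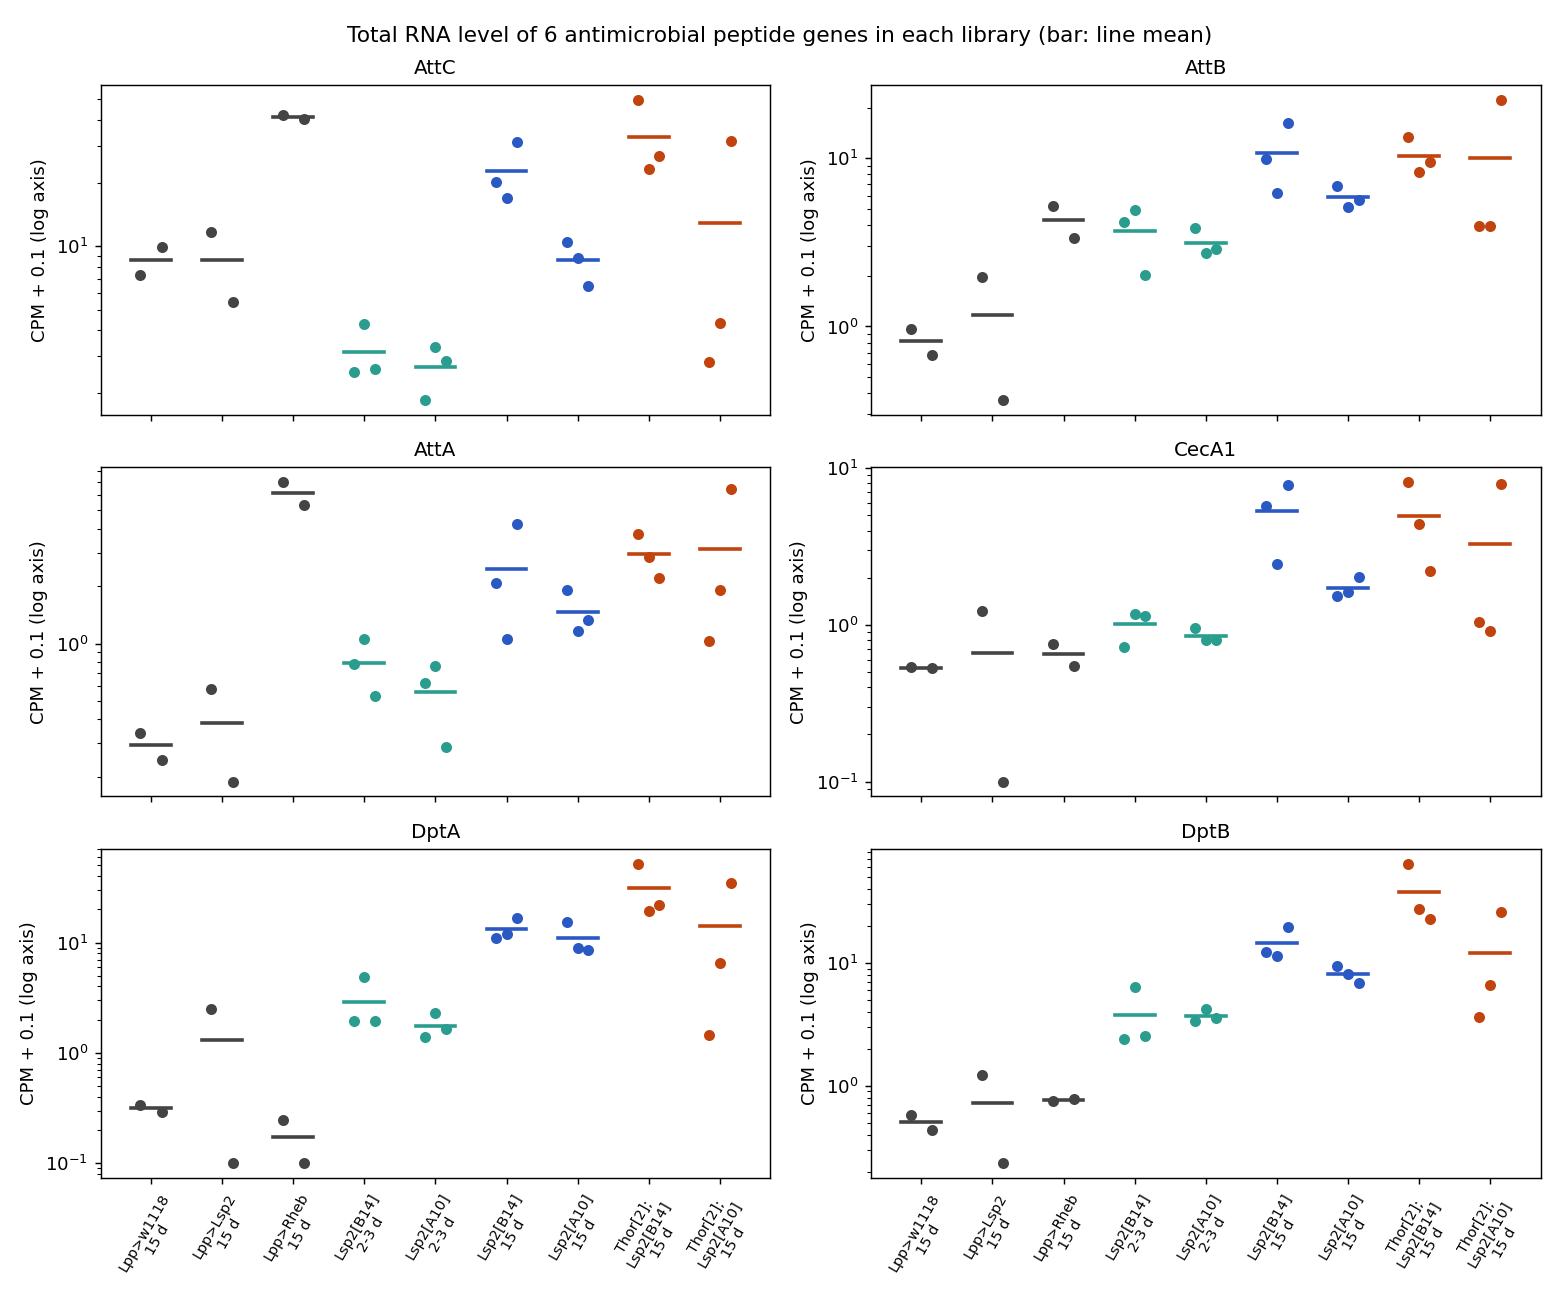
Level of AttC, AttB, AttA, CecA1, DptA and DptB in each of the 24 total RNA libraries, in CPM with a small constant added, on a log axis. Each library has 1 point, and the 9 groups stand side by side with a bar at the group mean. AttC is high in both Lpp[TS]>Rheb libraries, at 42.0 and 40.4 CPM, and replicate 3 of Thor[2];Lsp2[A10] stands above the other 2 replicates of its group for most genes.

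Summed over the 10 genes, the highest level was in Thor[2];Lsp2[B14], at 89.1, 90.2 and 201.2 CPM with a mean of 126.8 ± 64.4 (SD, n = 3). It was followed by Lsp2[B14] at 15 days, with 73.9 ± 27.2 CPM (SD, n = 3), and Thor[2];Lsp2[A10], with 59.8 ± 69.1 CPM (SD, n = 3). The third group's mean rested on 1 library, since its replicates stood at 14.8, 25.2 and 139.3 CPM. Lpp[TS]>Rheb came next with 55.1 ± 4.53 CPM (SD, n = 2), and neighbours down to this point in the order overlapped. Lsp2[A10] at 15 days, at 38.2 ± 8.43 CPM (SD, n = 3), lay wholly below Lpp[TS]>Rheb and wholly above the groups that followed. The lowest 4 groups overlapped with their neighbours: young Lsp2[B14] with 16.0 ± 6.88 CPM (SD, n = 3), young Lsp2[A10] with 13.0 ± 1.09 (SD, n = 3), Lpp[TS]>Lsp2 with 12.6 ± 9.40 (SD, n = 2) and Lpp[TS]>w1118 with 10.8 ± 1.15 (SD, n = 2).

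The mixture of peptides differed between the sets of lines. In the 6 libraries of the Lpp[TS] lines, AttC held from 60.3% to 89.6% of the counts of the 10 genes, with a median of 75%, and the diptericins held a median of 3.4% (1.32% to 18.3%). In the 12 allele libraries at 15 days the diptericins were the largest class, with a median of 47.8% (32.9% to 57.5%), and AttC had a median of 24.9% (16.7% to 31.7%). In the 6 young libraries the diptericin median was 38.6% (33.2% to 46.1%) and the AttC median 20.5% (14.5% to 22.7%). The AttC shares of the Lpp[TS] lines and of the allele lines did not overlap, and neither did the diptericin shares. The sets of lines were counted in separate tables and differ in driver, so genotype and table cannot be told apart here. Marker sums differed between the sets too, at 195 to 421 CPM in the Lpp[TS] lines against at least 1670 in the allele lines for ovary. They were 9070 to 15100 against at least 17600 for fat body, and 3180 to 5010 against at least 5740 for midgut. Hemocyte sums overlapped. The part of these tissues in the mixture was not tested. Cecropins were a small class in every set, with medians of 5.24% in the Lpp[TS] lines, 9.59% in the 15-day allele lines and 10.8% in the young ones.

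**Figure D2:**
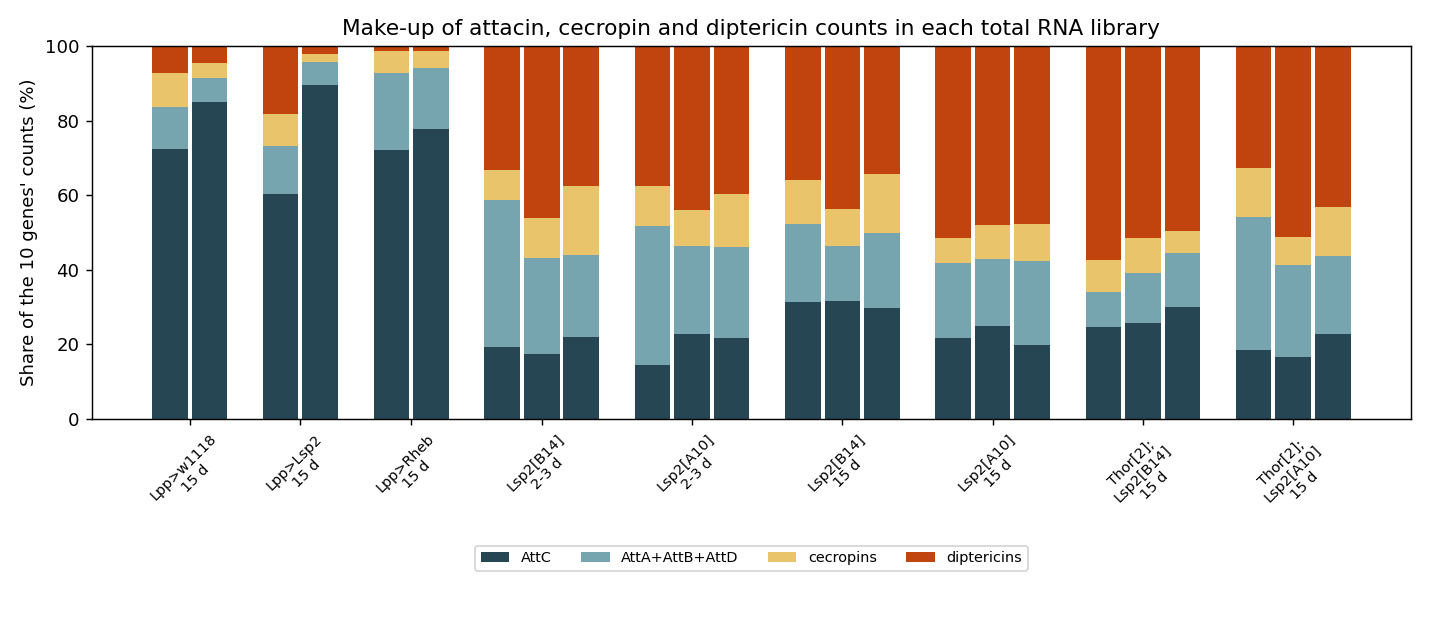
Percent of the counts of the 10 peptide genes held by AttC, by the other attacins, by the cecropins and by the diptericins in each total RNA library, with 1 stacked bar per library. AttC makes up at least 60.3% of every Lpp[TS] bar and at most 31.7% of every allele bar.

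AttA, AttB, AttC and CecC had higher values in Lpp[TS]>Rheb than in the driver control, but no gene passed the threshold in the fit shared by the 3 Lpp[TS] groups. AttA stood at 6.95 and 5.22 CPM in Lpp[TS]>Rheb and at 0.241 and 0.144 in Lpp[TS]>w1118. AttC stood at 42.0 and 40.4 CPM against 7.19 and 9.84, and CecC at 2.15 and 1.70 against 0.289 and 0.048. Both replicates of Lpp[TS]>Rheb were above both control replicates for each of the 6 genes with enough counts for a test, as for 24% of all genes tested. AttA held 5 and 3 counts in the control and 233 and 129 in Lpp[TS]>Rheb. CecC held 6 and 1 in the control and 72 and 42 in Lpp[TS]>Rheb. Both passed the count filter through the Lpp[TS]>Rheb libraries, so their place among the 6 is not independent of the difference. The log2 change was 5.0 ± 0.84 (SE) for AttA, with an adjusted p of 0.0605 by edgeR's quasi-likelihood test with Benjamini-Hochberg adjustment over all genes, and 2.33 ± 0.38 for AttC, with an adjusted p of 0.0568. CecC had 3.53 ± 1.13 (adjusted p = 0.289) and AttB 2.58 ± 0.91 (adjusted p = 0.339), and DptB and CecA1 had smaller values of 0.76 and 0.40. None of the 6 was called by edgeR, beside 1.53% of all genes tested called in either direction, 4 had an unadjusted p under 0.05 (AttA, AttB, AttC and CecC), and DESeq2 called 2 of them, beside 6.08% of all genes. The median log2 change of the 6 genes was 2.46. AttD, CecA2, CecB and DptA had too few counts in these lines to be tested. In Lpp[TS]>Rheb against the control, DptA held 5 and 0 counts against 5 and 4, and CecA2 20 and 6 against 4 and 0. AttD held 1 and 1 against 0 and 0, and CecB 1 and 0 against 0 and 0.

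The call for AttA and AttC depended on how the fit was set up. AttA and AttC were called by DESeq2, with adjusted p-values of 7.08e-06 and 1.58e-06, with no filter on low counts and with a filter of at least 50 counts on average. In a fit of these 2 groups alone, 4 of the 6 genes were called higher, beside 25.3% of all genes called in either direction. The fractions of the gradient gave a further reading from other libraries of the same flies. In the polysome fraction AttA stood at 8.26 and 8.37 CPM in Lpp[TS]>Rheb against 0.203 and 0.0395 in the control, and AttC at 28.5 and 36.4 against 7.43 and 6.55. Both were called higher there, AttA with a log2 change of 6.13 (adjusted p = 0.0308) and AttC with 2.36 (adjusted p = 0.0331), beside 1.68% of all genes called. In the monosome fraction AttA (3.84) and CecC (3.71) were called, beside 2.24% of all genes.

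Among the genes that carry or restrain Imd signalling, PGRP-SC2 was the one called in Lpp[TS]>Rheb. Of all genes, 1.53% were called in either direction in this comparison and 1.31% higher. PGRP-SC2, an amidase that digests peptidoglycan, stood at 111 and 93.3 CPM against 24.2 and 34.3 and was higher by 1.86 ± 0.23 on the log2 scale (adjusted p = 0.0269, edgeR), 1 of 12 tested brakes of the pathway. BomBc1, a bomanin peptide of the Toll response, was higher by 2.77 ± 0.36 (adjusted p = 0.0314, edgeR), 1 of 15 other peptide genes tested. None of 18 genes from receptors to Rel was called: PGRP-LC had 0.81, imd 0.57 and Rel 0.49. The brake pirk had 2.01 ± 0.42 (adjusted p = 0.108, edgeR) and drosocin, Dro, another peptide of the Imd response, 2.89 ± 0.74 (adjusted p = 0.169). The antifungal genes Mtk and Drs had 0.33 and -0.18. Fat body markers summed to 14600 to 15100 CPM in Lpp[TS]>Rheb against 12000 to 12600 in the control with 0 of 9 called, hemocyte markers to 260 to 286 against 296 to 328 with 0 of 8 called, and midgut markers to 4230 to 5010 against 3590 to 3820 with 0 of 8 called, and their part in the result was not tested.

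In Lpp[TS]>Lsp2 the 2 replicates disagreed. For AttA, AttB, AttC, CecA1, DptA and DptB they lay on opposite sides of both control replicates. AttC stood at 11.6 and 5.35 CPM, DptA at 2.40 and 0, and CecA1 at 1.12 and 0, around control values of 7.19 and 9.84, 0.241 and 0.192, and 0.434 and 0.432. Replicate 1 was higher than replicate 2 for each of the 9 detected genes. For all 6 genes tested the groups overlapped, where 30.2% of all genes did not overlap. Of these 6, edgeR called 0, with 0 at an unadjusted p under 0.05 and 0 by DESeq2, beside 0.0166% of all genes called. The median log2 difference was 0.53 against 0.08 over all genes. Without replicate 1, the log2 difference was -0.76 for AttC and -6.40 for CecA1 in the remaining Lpp[TS]>Lsp2 library, whose spread is then taken from the other groups. CecA1 held 0 counts in that library against 9 and 9 in the control, so the size of its difference was set by the prior count of the fit.

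In Lsp2[B14], 7 of the 9 peptide genes tested were called higher at 15 days than in young flies, whereas in Lsp2[A10] 2 were, a share close to that of all genes. In Lsp2[B14], AttC stood at 2.43, 4.19 and 2.49 CPM in young flies and at 20.1, 16.8 and 31.2 at 15 days. DptB stood at 2.32, 6.25 and 2.44 against 12.2, 11.4 and 19.4. CecA1 stood at 0.622, 1.08 and 1.03 against 5.60, 2.35 and 7.71. Every 15-day replicate of Lsp2[B14] was above every young one for all 9 genes tested, as for 32.1% of all genes. edgeR called 7 of the 9 higher, against 15.9% of all genes called higher and 35.1% in either direction: AttC by 2.76 ± 0.67 on the log2 scale (adjusted p = 0.00506), CecA1 by 2.34 ± 0.70 (0.0165), DptA by 2.06 ± 0.76 (0.0441), AttD by 2.03 ± 0.52 (0.00637), DptB by 1.82 ± 0.60 (0.0271), AttA by 1.67 ± 0.63 (0.049) and AttB by 1.47 ± 0.54 (0.044). CecC (2.04, adjusted p = 0.0896) and CecA2 (1.99, adjusted p = 0.0568) did not pass. Without replicate 3 of the 15-day group 2 were called, AttC and AttD, and without young replicates 1 or 3 the count was 3 or 2.

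In Lsp2[A10] the same 9 genes had values above 0 but fewer passed. DptA stood at 1.31, 2.18 and 1.53 CPM in young flies and at 15.3, 8.73 and 8.43 at 15 days, and rose by 2.49 ± 0.83 on the log2 scale (adjusted p = 0.0243, edgeR). AttD, at 0.262, 0.0702 and 0.139 against 0.944, 0.212 and 0.409 CPM, rose by 1.70 ± 0.65 (adjusted p = 0.0451) although its groups overlapped. AttC stood at 1.76, 3.23 and 2.74 against 10.4, 8.73 and 6.34 without overlap, with a log2 difference of 1.52 ± 0.71 (adjusted p = 0.0942). For 7 of the 9 genes every 15-day replicate was above every young one, as for 39.7% of all genes. The 2 called higher stood beside 20% of all genes called higher and 42.4% in either direction. The median log2 change was 1.14, against 2.03 in Lsp2[B14]. The calls in Lsp2[A10] were fragile: none was left without 15-day replicate 1 or without young replicates 2 or 3, and 1 without 15-day replicate 3 or young replicate 1. The difference between alleles in the age change was not called for any of the 9 genes by edgeR, with 0 at an unadjusted p under 0.05 and 0 by DESeq2, beside 0.172% of all genes.

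Age differences were called in the gradient fractions as well. With polysome libraries in place of total RNA, 7 of the 9 genes were called in Lsp2[A10] and 8 in Lsp2[B14], against 39.6% and 44.6% of all genes in either direction. With monosome libraries 6 and 4 were called, against 34.8% and 48.1%. In the polysome fraction every 15-day replicate was above every young one for all 9 genes in both alleles, as for 28.9% of all genes in Lsp2[A10] and 27.9% in Lsp2[B14]. Age is not separate from the table in which the libraries were counted, so the contribution of each cannot be told apart. Hemocyte markers moved the other way, from 922 to 1040 CPM in young Lsp2[B14] to 460 to 676 at 15 days with 5 of 8 called lower, and from 945 to 979 to 346 to 523 in Lsp2[A10] with 7 of 8 called lower. Fat body markers had 2 higher and 1 lower of 9 in Lsp2[B14] and 4 lower of 9 in Lsp2[A10], and midgut markers 2 higher and 1 lower of 9 in each. Of all genes in total RNA, 19.2% were called lower and 15.9% higher in Lsp2[B14]. In Lsp2[A10] 22.5% were called lower and 20% higher. The part of these cell types in the result was not tested.

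Of 13 brakes of the Imd pathway, 8 were called higher and 1 lower at 15 days in Lsp2[A10], and 7 higher and 1 lower in Lsp2[B14], beside the 20% and 15.9% of all genes called higher. The shares of all genes called lower were 22.5% in Lsp2[A10] and 19.2% in Lsp2[B14]. In the latter allele pirk stood at 5.37, 9.0 and 9.07 CPM in young flies and at 59.99, 51.6 and 54.9 at 15 days, a log2 change of 2.68 ± 0.18 (adjusted p = 6.32e-09, edgeR), whereas in Lsp2[A10] it rose from 8.69, 9.20 and 8.13 to 19.8, 17.7 and 18.5 CPM, a change of 0.95 ± 0.18 (adjusted p = 0.000508). These changes differed between alleles by -1.73 ± 0.25 (A10 minus B14, adjusted p = 0.00571, edgeR). The amidase PGRP-LB rose by 0.49 in Lsp2[A10] and 1.09 in Lsp2[B14], and PGRP-SC1a by 1.89 and 2.94. Of 18 receptor and signalling genes, 4 were higher and 2 lower in each allele, shares of higher calls near those of all genes, among them PGRP-LC (0.48) and Rel (0.24) in Lsp2[B14]. In Lsp2[A10] these had 0.00 and -0.04, and the difference between alleles was not called (adjusted p = 0.534 and 0.564, edgeR). Other peptides split: Dro rose by 1.29 and 1.74, Drsl4 fell by 1.45 and 1.84 in the order A10, B14, and of 16 tested 1 was higher and 5 lower in Lsp2[A10] against 5 higher and 2 lower in Lsp2[B14].

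**Figure D3:**
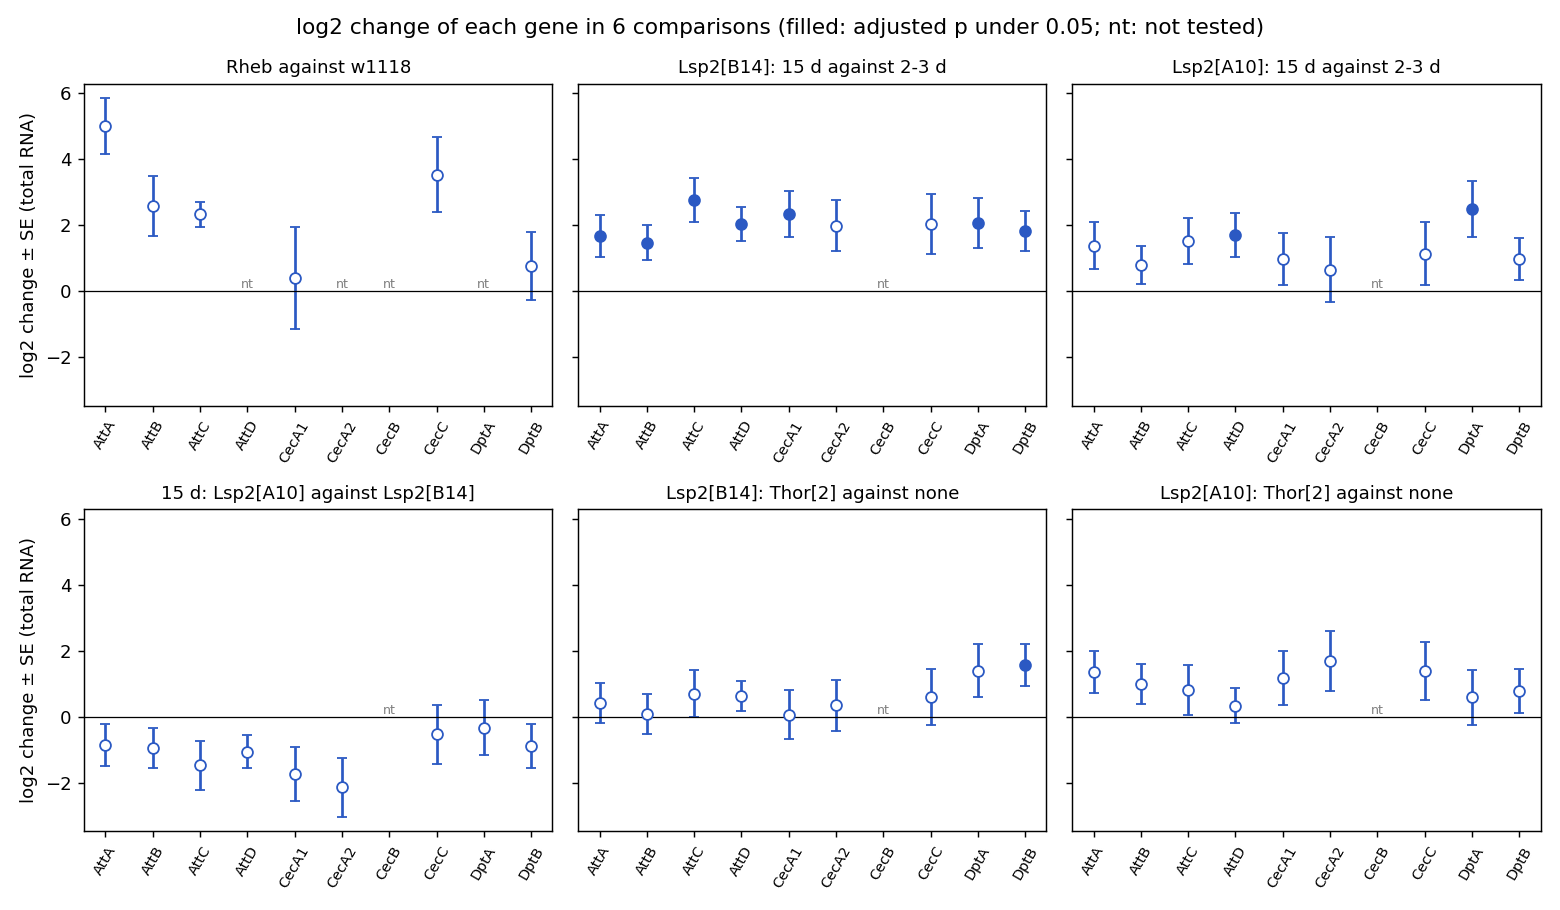
Log2 change of each tested peptide gene in total RNA, with SE bars, filled where the adjusted p (edgeR) is under 0.05. The comparisons are Lpp[TS]>Rheb against control, age in each allele, the alleles at 15 days, and Thor[2] with each allele. In the age comparisons the points of all 9 tested genes lie above 0 in both alleles, with 7 called in Lsp2[B14] and 2 in Lsp2[A10].

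At 15 days the peptide genes had lower values in Lsp2[A10] than in Lsp2[B14], but none passed the test. AttC stood at 10.4, 8.73 and 6.34 CPM in Lsp2[A10] against 20.1, 16.8 and 31.2 in Lsp2[B14], and CecA2 at 0.657, 1.10 and 0.736 against 1.69, 1.99 and 6.86. Every Lsp2[A10] replicate was below every Lsp2[B14] one for AttC, CecA1, CecA2 and DptB, as for 7.76% of all genes, and the groups overlapped for the other 5 genes tested. All 9 differences were below 0, from -0.32 to -2.13 with a median of -0.94, but edgeR called 0 of 9, with 1 (CecA2) at an unadjusted p under 0.05 and 0 by DESeq2, beside 2.21% of all genes. A fit of these 2 groups alone called AttC (-1.47, adjusted p = 0.0315), beside 1.87% of all genes. The brake pirk was lower, with 19.8, 17.7 and 18.5 CPM in Lsp2[A10] against 59.99, 51.6 and 54.9 in Lsp2[B14], a log2 difference of -1.62 ± 0.14 (adjusted p = 6.26e-05, edgeR). PGRP-SC1a was also lower in Lsp2[A10] (-1.46 ± 0.34, adjusted p = 0.0411), making 2 of 13 brakes, while 0 of 18 signalling genes and 0 of 16 other peptides were called.

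In young flies the alleles overlapped for every one of the 7 genes tested, where 11% of all genes did not overlap. The median log2 difference was -0.37, and edgeR called 0 of 7, with 0 at an unadjusted p under 0.05 and 0 by DESeq2, beside 0.332% of all genes. AttB, for example, stood at 3.73, 2.63 and 2.79 CPM in Lsp2[A10] and at 4.07, 4.84 and 1.92 in Lsp2[B14]. No brake or signalling gene was called in young flies, and pirk differed by 0.12 ± 0.21 (edgeR).

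With the B14 allele, DptB was the 1 peptide gene called in the libraries labelled Thor[2]. DptB stood at 64.2, 27.2 and 22.6 CPM in Thor[2];Lsp2[B14] and at 12.2, 11.4 and 19.4 in Lsp2[B14], and DptA at 51.6, 19.3 and 21.6 against 10.8, 11.8 and 16.5. For these 2 genes every Thor[2];Lsp2[B14] replicate was above every Lsp2[B14] one, as for 31.3% of all genes, and for the other 7 tested the groups overlapped. DptB was higher by 1.57 ± 0.64 on the log2 scale (adjusted p = 0.0477, edgeR), 1 of 9 genes tested, where 35.2% of all genes were called higher and 69.2% in either direction. The median log2 difference of the 9 genes was 0.61. The call for DptB did not hold with other library scalings, with no count filter or in any of the fits that left out 1 library of the 2 groups, except that without replicate 2 of Thor[2];Lsp2[B14] (adjusted p from 0.00963 to 0.523 over the alternatives). In the polysome fraction DptB differed by -0.49, the opposite sign, without a call.

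With the A10 allele no gene was called, and the median rested on 1 library. AttC stood at 2.72, 4.2 and 31.6 CPM in Thor[2];Lsp2[A10] against 10.4, 8.73 and 6.34 in Lsp2[A10], and DptA at 1.36, 6.43 and 34.2 against 15.3, 8.73 and 8.43. The groups overlapped for all 9 genes tested, whereas 71.7% of all genes did not overlap. Replicate 3 lay above the controls while replicates 1 and 2 lay below them for AttC and DptA. All 9 differences were above 0, from 0.34 to 1.69 with a median of 1.0, and edgeR called 0 of 9, with 1 (AttA) at an unadjusted p under 0.05 and 1 by DESeq2, beside 66.8% of all genes. Without replicate 3 the median was -0.47, and AttC was called lower, at -1.08 (adjusted p = 0.0353). Without replicate 1, AttA (1.78) and CecA2 (2.17) were called higher. The shares of all genes called in these fits without 1 library are not given here.

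In the gradient fractions several peptide genes, the diptericins among them, had lower values in Thor[2];Lsp2[A10] than in Lsp2[A10]. AttA and CecA1 overlapped in both fractions. In the polysome fraction DptA stood at 2.26, 4.86 and 16.4 CPM in Thor[2];Lsp2[A10] against 72.7, 45.7 and 27.6 in Lsp2[A10], and DptB at 7.58, 8.50 and 23.6 against 62.9, 59.5 and 44.8. The groups did not overlap for either. In this fraction every Thor[2];Lsp2[A10] replicate was below every Lsp2[A10] one for 6 of 9 genes, as for 43.1% of all genes. The 6 were AttC, AttD, CecA2, CecC, DptA and DptB. DptA was called lower there by edgeR at -2.32 (adjusted p = 0.038) and DptB at -1.78 (adjusted p = 0.0441), 2 of 9 genes, beside 34.4% of all genes called in either direction. In the monosome fraction AttB (-0.86), AttC (-1.64), DptA (-1.93) and DptB (-1.72) were called lower, 4 of 9, beside 52.3% of all genes in either direction. The same 4 genes lay wholly below Lsp2[A10] there, as did 34% of all genes.

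Between the alleles in the Thor[2] background, 0 of 9 genes were called by edgeR in total RNA, with 2 (AttD and DptB) at an unadjusted p under 0.05 and 0 by DESeq2, beside 4.16% of all genes. The median difference, A10 minus B14, was -0.79. Without replicate 3 of Thor[2];Lsp2[A10] it was -2.48, and AttC (-3.25), DptA (-2.97) and DptB (-2.92) were called lower. The share of all genes called in that fit is not given here. In total RNA every Thor[2];Lsp2[A10] replicate was lower for 1 of 9 genes (AttD), as for 10.7% of all genes. In polysome libraries this held for 6 of 9, as for 10.2%, and CecA2 (-3.11) was called lower, beside 3.95% called in either direction. In monosome libraries it held for 5 of 9, as for 11.7%, and AttC (-1.585), DptA (-1.77) and DptB (-2.41) were called lower, beside 12.5%. In total RNA the Thor[2] difference was not called different between alleles for any of the 9 genes by edgeR. There were 0 at an unadjusted p under 0.05 and 0 by DESeq2, beside 4.1% of all genes. These comparisons share the Lsp2[A10] and Lsp2[B14] groups with those above.

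Of the other peptide genes, 14 of 16 were called higher in the libraries labelled Thor[2] with each allele, with medians of 1.90 (A10) and 1.45 (B14), beside 34.4% (A10) and 35.2% (B14) of all genes called higher in total RNA. The antifungal drosomycin gene Drs was higher by 1.28 and 1.6, Mtk by 1.84 and 1.85, the defensin gene Def by 2.22 and 1.71 and the bomanin gene BomS5 by 2.76 and 2.46, in the order A10, B14. Dro, at 1.0 (adjusted p = 0.0881, edgeR) and 0.85 (adjusted p = 0.12), did not pass. Of 18 Imd pathway genes, 7 were higher and 7 lower with A10 and 7 higher and 6 lower with B14, near the shares of all genes, of which 32.3% (A10) and 34% (B14) were called lower: imd was higher by 0.79 and 0.60, and Rel lower by -0.31 and -0.62. The brake pirk was higher with A10 (0.40) and lower with B14 (-0.98), and this difference was itself called, at 1.37 ± 0.19 (adjusted p = 0.002, edgeR). Beside these values, midgut markers summed to 11700 to 13300 CPM in Thor[2];Lsp2[A10] against 7220 to 7500 in Lsp2[A10], and to 11200 to 12100 against 7450 to 9860 with B14, with 6 of 9 called higher for each allele. Fat body markers summed to 31400 to 33400 CPM in Thor[2];Lsp2[A10] against 17600 to 26900 in Lsp2[A10], with 5 higher and 1 lower of 9, and 5 of 8 hemocyte markers were higher there. With B14, 3 fat body markers were higher and 3 lower, and 1 hemocyte marker was higher and 3 lower. The part of these cell types in the result was not tested.

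Within groups, the peptide genes varied together from library to library, AttD least. Each gene's log2(CPM + 0.5) was taken as its deviation from the mean of its group, over the 24 total RNA libraries, for the 9 genes with at least 10 counts on average. Among the 28 pairs without AttD, Pearson's r ran from 0.693 to 0.95 with a median of 0.835. The 8 pairs with AttD ran from -0.0243 to 0.372 with a median of 0.29. AttD averaged 13.5 counts and was at 0 in 3 of the 24 libraries. Counting error and the added 0.5 weigh most on such low values, and their part was not tested. The libraries share depth and preparation with each other, the near-identical copies can share reads, and genes are not independent replicates, so these values are descriptive. The libraries farthest from their group means were replicates 3 and 1 of Thor[2];Lsp2[A10], with mean deviations of 1.53 and -0.983, and without them the pairs lacking AttD ran from 0.428 to 0.906 with a median of 0.705. With all 3 libraries of that group left out, they ran from 0.382 to 0.913 with a median of 0.691.

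Of 9147 other genes with at least 50 counts on average, the one most like the mean of the peptide genes by this measure was Mtk, with r = 0.889 over the 24 libraries. It was followed by Dro (0.876), Mtkl (0.821), Vha36-3 (0.790) and CG2961 (0.744). Without the 2 farthest libraries Mtk had r = 0.88, Dro 0.779, Mtkl 0.768 and Vha36-3 0.717, whereas CG2961 had 0.238. The likeness of CG2961 thus rested on those 2 libraries. Of the named pathway genes, PGRP-LC had r = 0.491, imd 0.477, PGRP-LB 0.334, pirk 0.171 and Rel 0.14. The highest r of any pathway or brake gene among those compared was 0.66.

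**Figure D4:**
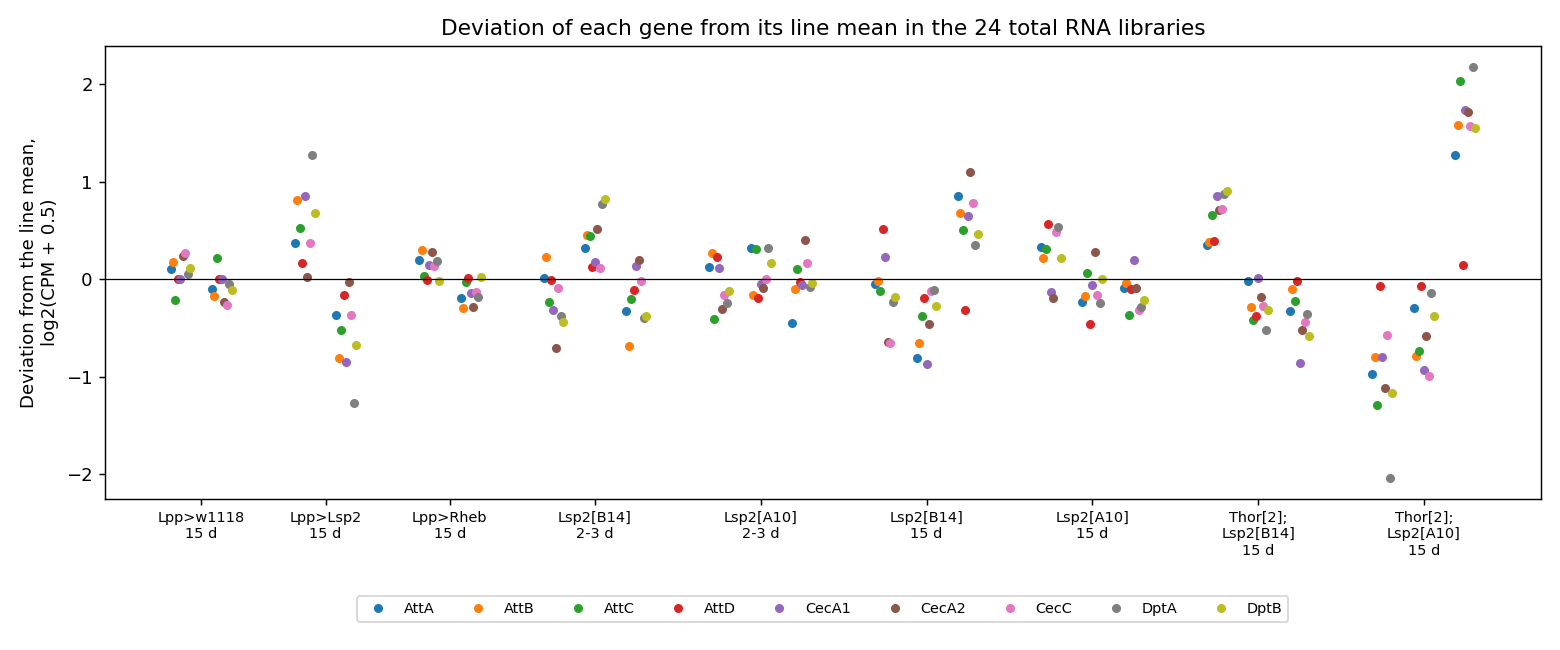
Deviation of each peptide gene with at least 10 counts on average from the mean of its group in each total RNA library. The scale is log2(CPM + 0.5), with 1 dot per gene and library. Averaged over these genes, replicates 3 (1.53) and 1 (-0.983) of Thor[2];Lsp2[A10] lie farthest from 0.

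The share of each transcript on polysomes was read as the ratio of polysome to total RNA. Short transcripts sit higher on this scale in these libraries, so the genes of the members' own length range, 339 to 900 bases of exon, are given beside all genes. In the 15-day allele lines, 9 of the 10 genes were called higher in the polysome fraction, against 41.8% of all genes and 76.2% of the genes in that length range. The median log2 ratio of the 10 genes was 1.6, and that of genes in the length range 1.15. CecA1 had the highest value, 2.29 (adjusted p = 7.23e-06, edgeR), followed by CecA2 with 2.09 and CecB with 1.92, then DptB with 1.88 (adjusted p = 5.17e-05), CecC with 1.80, AttB with 1.39, DptA with 1.04, AttA with 0.85 and AttD with 0.81. AttC was the exception, at -0.36 (adjusted p = 0.373). In young flies 6 of 8 genes tested were called higher, against 40.3% of all genes and 75.8% in the length range, led by CecC at 2.87. AttC was called lower in young flies, at -1.05 (adjusted p = 0.0104, edgeR), as were 41.4% of all genes but only 9.62% of those in the length range.

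In the Lpp[TS] lines edgeR called 0 of 8 genes, with 2 at an unadjusted p under 0.05 and 1 by DESeq2. Of all genes 24% were called higher, and of those in the length range 38.9%. The total RNA and fractions of a replicate come from 1 powder, and with the replicate as a block 6 of the 8 were called, where 56.7% of all genes were called in either direction. The calls also changed when replicate 1 or 2 of Lpp[TS]>Lsp2 was left out, which leaves 1 replicate in that group. Read per replicate where both libraries held at least 10 counts, AttC had a log2 ratio above 0 in 8 and below 0 in 15 of 23 replicates, from -1.83 to 1.12. The sign followed the group, above 0 in both Lsp2 alleles at 15 days (0.540 to 0.603 in A10, 0.0335 to 1.12 in B14) and in Lpp[TS]>Lsp2 (0.123 and 0.422), and below 0 in the other 6 groups. AttB and CecA1, in contrast, were above 0 in all 23 and all 21 of the replicates with enough counts.

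**Figure D5:**
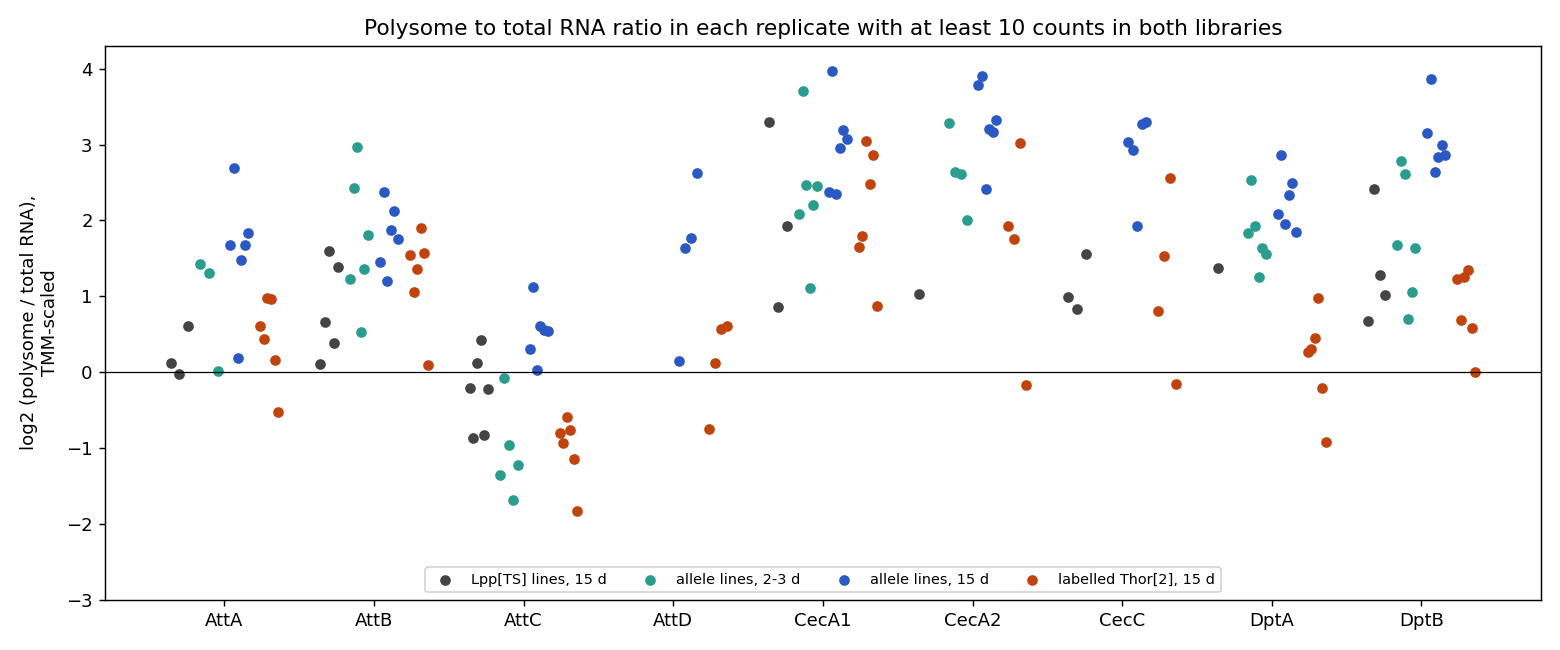
Log2 ratio of polysome to total RNA, TMM-scaled as in the fits, for each peptide gene and replicate with at least 10 counts in both libraries. Colours mark the Lpp[TS] lines, the young allele lines, the 15-day allele lines and the groups labelled Thor[2]. DptB lies between 2.64 and 3.86 in Lsp2[A10] and Lsp2[B14] at 15 days and between 0.00563 and 1.35 in the groups labelled Thor[2].

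Against the monosome fraction, polysome values were also mostly higher. In the 15-day allele lines 8 of 9 genes were called higher, against 20.1% of all genes and 44.5% of those in the length range, now including AttC (1.57, adjusted p = 4.25e-05, edgeR) but not AttD (0.64). In the Lpp[TS] lines edgeR called 2 of 8 higher, AttC by 1.73 (adjusted p = 0.000568) and CecC by 1.14 (adjusted p = 0.0423). That stood against 14.8% of all genes and 30.5% of those in the length range. With the replicate as a block 7 were called, beside 43.6% of all genes in either direction. In young flies AttB, CecA1 and CecA2 were called higher, 3 of 8, against 21.9% of all genes and 10.8% in the length range, and with the block 7 were called, beside 56.9% in either direction.

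Translational efficiency, the polysome to total RNA ratio compared between groups as an interaction term, was not called different for any gene in the 5 comparisons of genotypes at 1 age, by edgeR or by DESeq2. The tests held 8 genes in each Lpp[TS] comparison, 10 in each 15-day allele comparison and 8 in young flies. In 4 of these comparisons no gene had an unadjusted p under 0.05, and between the alleles at 15 days 1 did (CecB). Over all genes, 0% were called for Lpp[TS]>Lsp2 against control, for Lpp[TS]>Rheb against control and for the alleles at 15 days, 0.0904% for the alleles in the Thor[2] background and 0.0687% for the alleles in young flies. With the replicate as a block DptB was called lower in young Lsp2[A10] than in young Lsp2[B14] (-1.31, adjusted p = 0.01, edgeR), beside 15.6% of all genes.

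The diptericins had lower ratios in the libraries labelled Thor[2] than in the same alleles without it. In the fit without a replicate block, the share of members called lower was close to or below that of all genes. With the replicate as a block, which pairs the fractions of 1 powder, more members were called lower, as given below for each allele. The comparison was chosen after the values had been seen. DptB had log2 ratios of 2.83 to 2.99 in Lsp2[A10] against 0.00563 to 1.35 in Thor[2];Lsp2[A10], and 2.64 to 3.86 in Lsp2[B14] against 0.692 to 1.25 in Thor[2];Lsp2[B14]. DptA had 1.85 to 2.49 against -0.919 to 0.972 with A10, and 1.95 to 2.86 against 0.263 to 0.456 with B14. None of these ranges overlapped, and every ratio was lower under Thor[2] for 32.7% (A10) and 32% (B14) of all genes with enough counts, and for 64.1% and 67.8% in the length range. Of the members with enough counts in every replicate, this held for 5 of 6 (83.3%) with A10 and for 3 of 8 (37.5%) with B14. With B14 the members' share was thus below that of the length range. With A10, CecA2 (-3.43 ± 1.29, adjusted p = 0.0432, edgeR) and DptB (-2.58 ± 0.95, adjusted p = 0.0387) were called lower, 2 of 10, against 23% of all genes and 43.7% of those in the length range called lower. The members' median of -2.36 stood beside -0.74 in the length range. CecA2 had enough counts for a ratio in 1 replicate of Thor[2];Lsp2[A10], at -0.173, against 3.16 to 3.32 in Lsp2[A10]. Its near-identical copy CecA1 had 0.867 to 2.86 against 2.95 to 3.19. With near-identical copies summed (AttA with AttB, CecA1 with CecA2), DptB was the 1 gene called. The adjusted p ran from 6.14e-05 to 0.111 for CecA2 and from 6.12e-05 to 0.105 for DptB over the alternatives. Of the 6 fits that left out 1 library, CecA2 was called in 2 (without Thor[2];Lsp2[A10] replicate 1 or 3) and DptB in 1 (without its replicate 1). Without Lsp2[A10] replicate 1 the 1 gene called was AttD (-2.17), without Thor[2];Lsp2[A10] replicate 2 it was CecB (-4.45), and without Lsp2[A10] replicate 2 or 3 there was none. With the replicate as a block 6 were called lower, AttA, AttC, CecA2, CecC, DptA and DptB, beside 40.4% of all genes in either direction.

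With B14 edgeR called 0 of 10 genes, with 1 (DptB) at an unadjusted p under 0.05 and 1 by DESeq2, against 23.3% of all genes and 52.7% of the length range called lower. DptB had -2.08 (adjusted p = 0.0692, edgeR), DptA -2.00, and the members' median was -1.03 against -0.87 in the length range. With the block, AttC (-1.27), CecA2 (-1.12), CecC (-1.82), DptA (-1.96) and DptB (-2.16) were called lower, 5 of 10, beside 43.1% of all genes in either direction. Among other peptide genes 11 of 17 with A10 and 10 of 17 with B14 were called lower. The age comparison of the ratio, also chosen after the values had been seen, called 0 of 10 genes in each allele by edgeR, with 0 at an unadjusted p under 0.05 and 0 by DESeq2, beside 26% of all genes in A10 and 27% in B14. With the block AttC (2.15, adjusted p = 0.00026, edgeR) and DptB (1.79, adjusted p = 0.00112) were called higher at 15 days in Lsp2[A10], beside 27.6% of all genes, and AttC (1.21, adjusted p = 0.0064) in Lsp2[B14], beside 28.9%.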

How the data were processed

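Raw counts per gene were made and deposited by the authors, and the files hold whole numbers that were not normalized. Per the submitters' processing notes, fastp 0.23.2, Bowtie2 2.3.4.1, STAR 2.2.1, featureCounts 1.6.0 and R 4.2.0 were used with build BDGP6; the annotation release and strand setting are not given in the sources used here. Per the labels' protocols, poly(A) RNA was sequenced in paired ends. All 72 libraries were matched by their names, with 0 columns left over. Gene positions come from the BDGP6.54 annotation.

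Total RNA was tested per table (for age, the 2 allele tables together, with all their groups in 1 fit) with edgeR 4.0.16's quasi-likelihood test in R 4.3.3 (limma 3.58.1 loaded with it), TMM scaling, the default count filter and Benjamini-Hochberg adjustment over all genes tested, with 0.05 as threshold and log2 changes at a prior count of 0.125. Polysome libraries were fitted jointly with total RNA or monosome libraries. The code was tested on simulated data. DESeq2 1.42.0, other scalings and filters, a replicate block, fits of the groups compared alone and fits without 1 library were alternatives. Replicates are biological per the series' design text. No 2 replicates were alike within sampling noise: over 63 pairs, chi-square per degree of freedom was 6.85 to 143.

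Total RNA and fractions of one number come from 1 powder per the labels' protocols, so the number pairs fractions. Deviations of paired total RNA and polysome libraries from group means correlated by 0.18 to 0.755 in the Lpp[TS] lines, -0.0518 to 0.304 in the 15-day and 0.017 to 0.455 in the young allele lines. Across genotypes the labels tie the numbers to no shared source, and they were not taken as pairs.

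The genes, pathway lists and marker lists were chosen with earlier results of these data known. The text names all 10 members, Rel, imd, PGRP-LC, PGRP-LB, pirk, Drs, Mtk, Def and Dro, up to 5 further list genes with the smallest adjusted p among those called in a comparison, and the 5 genes most alike. Of the lists, nos and BaraA2 were not matched and not analysed here. Ovary markers summed to 195 to 421 CPM in the Lpp[TS] lines and at least 1670 in the allele lines.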

Additional observations from a re-analysis of the deposited data

Results flagged for a closer look

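The ratio of polysome to total RNA differed between Thor[2];Lsp2[A10] and Lsp2[A10] by a test of the interaction for 2 of the peptide genes: CecA2, with a log2 difference of -3.43, and DptB, with -2.58. That is 2 of 10, beside 23% of all genes and 43.7% of those in the members' length range called lower. CecA2 is a near-identical copy of CecA1, and how reads were split between them is uncertain. With such copies summed, DptB was the 1 gene called. CecA1 had ratios of 0.867 to 2.86 in Thor[2];Lsp2[A10] against 2.95 to 3.19 in Lsp2[A10]. The comparison was chosen after the values had been seen. Replicate 3 of Thor[2];Lsp2[A10] stood apart in total RNA, with 139.3 CPM over the 10 genes against 14.8 and 25.2. No fit that left out 1 library turned the direction, with CecA2 between -3.53 and -3.34 and DptB between -2.73 and -2.00, but CecA2 was called in 2 and DptB in 1 of the 6 such fits. The part of that library in the result was not tested further.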

How the results depend on the processing

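Counts of genes called under other settings, with the count reported above in brackets, were as follows. Lpp[TS]>Rheb (0): 2 with no filter, a filter of 50 counts, DESeq2, polysome or monosome libraries, and 4 with only the groups compared. Lsp2[A10] against Lsp2[B14] at 15 days (0): 1 with only the groups compared. Alleles in the Thor[2] background (0): 1 with polysome and 3 with monosome libraries. Thor[2] with A10 (0): 1 with no filter and with DESeq2, 2 with polysome and 4 with monosome libraries. Thor[2] with B14 (1): 0 with relative log expression factors, library totals, no filter, a replicate block, polysome or monosome libraries, and 2 with only the groups compared. Age in A10 (2): 0 with no filter, 1 with a filter of 50 counts, 7 with polysome and 6 with monosome libraries. Age in B14 (7): 3 with no filter, 4 with the replicate block and with monosome libraries. Polysome against total RNA in the Lpp[TS] lines (0): 1 with library totals, no filter or DESeq2, and 6 with the block. Polysome against monosome: 1 with a filter of 50 counts, 4 with DESeq2 and 7 with the block in the Lpp[TS] lines (2), and 7 with the block in young flies (3). Translational efficiency: 1 with the block between young alleles (0); for Thor[2] with A10 (2), 1 with no filter or near-identical copies summed, 4 with DESeq2 and 6 with the block; for Thor[2] with B14 (0), 1 with DESeq2 and 5 with the block; for age, 2 in A10 and 1 in B14 with the block (0 each). The causes were not tested.

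Leaving out each library in turn gave 0 to 2 calls for Lpp[TS]>Lsp2, 0 to 3 for the alleles in the Thor[2] background, 0 to 2 for Thor[2] with A10, 0 to 1 with B14, 0 to 2 for age in A10 and 2 to 6 in B14, 0 to 7 for polysome against total RNA and 1 to 7 for polysome against monosome in the Lpp[TS] lines, 1 to 3 for the latter in young flies, and for translational efficiency 0 to 4 for Thor[2] with A10 and 0 to 1 with B14. Of 703 values of single genes under alternatives, 606 kept direction and call, 82 lost and 14 gained a call, and 1 reversed, DptB under Thor[2] with B14 in polysome libraries (-0.49). Of 382 counts, 305 stayed within 1.5 times the reported count. Library totals moved the members' median for Thor[2] with A10 from 1.0 to 0.80 and for age in A10 from 1.14 to 1.30, without a change of direction. Same-numbered total RNA libraries of different genotypes correlated by -0.28 to 0.281 at 15 days and by -0.0874 to 0.322 in young flies (2 of 3 pairs over 0.1). Among the counts in total RNA, a block by number moved the 2 given above by over 1.5 times and no other. Depth limited CecB, and AttD in the Lpp[TS] lines, most.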
